A study of Rattus norvegicus with 2 samples.

Results

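The genes described here were Lif, the LIF and gp130 family receptor genes Lifr, Il6st, Osmr, Il6r, Cntfr and Il11ra1, and the adaptor genes Stam and Stam2. They were taken by name, and 9 of 9 were found among the 18156 genes of the deposited table. Both libraries came from the rat haploid embryonic stem cell line RAH-1 that reports Rex1, a marker of naive pluripotency, by green fluorescent protein. A piggyBac transposon with a splice acceptor and a red fluorescent protein gene had been inserted at many places in their genomes. The library after screening (PB-Diff) came from mutant cells that had formed embryoid bodies and differentiated at random, first in stem cell medium mixed with conditioned serum medium and then in serum medium, with a ROCK inhibitor added daily. They were sorted while still green and returned to feeder cells and the stem cell medium, which holds LIF and inhibitors of MEK and GSK3. The library before screening (PB-Ctrl) came from mutant cells sorted for both colours and expanded without the differentiation step. RAH-1 is a single line, each library was made from pooled cells, and insertions in DNA cannot check the labelled cell type. Each group was 1 library, so that no difference has a replicate check and no p-value is given.

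LIF is a secreted cytokine that holds rodent embryonic stem cells in the naive state and is therefore added to their medium. It binds the LIF receptor, which pairs with gp130, the product of Il6st, and the pair switches on JAK kinases and the transcription factor STAT3. Related cytokines use the same gp130 chain together with receptors of their own, and the STAM proteins bind ubiquitin on endosomes, where they sort internalised receptors, and were first described as partners of JAK kinases. In haploid cells a disrupting insertion can remove the single copy of such a gene, and the screen looked for disruptions with which cells kept the green signal.

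PiggyBac inserts at the tetranucleotide TTAA, which reads the same on both strands. The windows at the annotated starts of the members furthest to each side are shown. They are RefSeq windows of assembly GRCr8 that run from 250 bases before to 50 bases after the start used there, with TTAA in capitals. The build behind the insertions is uncertain, so no insertion is placed on them. The Il6st window lies at chr2:45809982-45810281 on the + strand and the Stam2 window at chr3:57643866-57644165 on the - strand.
Il6st: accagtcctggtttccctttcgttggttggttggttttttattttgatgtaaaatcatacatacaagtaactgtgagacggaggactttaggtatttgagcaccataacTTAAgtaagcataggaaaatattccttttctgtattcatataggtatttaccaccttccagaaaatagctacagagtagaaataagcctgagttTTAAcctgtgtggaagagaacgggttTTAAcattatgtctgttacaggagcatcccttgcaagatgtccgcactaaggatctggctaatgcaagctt
Stam2: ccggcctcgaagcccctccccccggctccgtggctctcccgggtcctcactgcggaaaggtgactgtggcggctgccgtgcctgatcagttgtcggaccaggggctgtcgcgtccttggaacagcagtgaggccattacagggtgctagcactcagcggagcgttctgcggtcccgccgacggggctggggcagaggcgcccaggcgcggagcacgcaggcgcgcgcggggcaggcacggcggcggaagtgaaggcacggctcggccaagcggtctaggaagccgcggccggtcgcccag
The Il6st window held 3 TTAA sites, which began 141, 47 and 21 bases before the start, whereas the Stam2 window held 0. Of the 6 members with a window in that set, which lacks Lif, Cntfr and Il11ra1, Lifr held 2 sites, Stam 1, and Osmr and Il6r 0. Of all 33469 windows of this length, 53.9% held at least 1. The bases before the Il6st start end in cag, as introns do, and an atg follows the start. That window may thus hold intron and coding sequence rather than a promoter, and no contrast of promoters is drawn. The TTAA matches are a description of the windows only.

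The library after screening held 1287231 insertions in genes from 2351082 reads, and the library before screening held 1528935 from 2824155 reads. An insertion count was divided by its library's total, and the fold was the ratio of these shares, after over before screening. Its 95% interval is an exact Clopper-Pearson interval that covers counting error only, because amplified reads that carry no molecular identifier are not separate molecules. How many separate sites or clones a gene's insertions stand for was not measured. Genes with 10 insertions or more in both libraries together count as measured. Higher or lower is used for a fold of 4 or more whose interval leaves out 1, which is a rule of size and not a test. A gene at 0 in 1 library counts as past 4-fold there, while its printed bound sets the 0 at a floor of 3 insertions. That bound is no minimum, since the interval can start nearer to 1.

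Of the 9 members 8 were measured. By the 4-fold rule Stam2 was called higher after screening, Il6st, Osmr and Stam were called lower, and Lifr, Il6r, Cntfr and Il11ra1 were called neither. Over all 11976 measured genes, 19.5% were called higher and 21.7% lower, so that 1 of 8 members lay under the first share and 3 of 8 over the second, and with 8 genes neither is read as particular to them. Osmr and Stam have under 50 insertions over both libraries, and with that minimum the members called lower were 1, Il6st. By a 2-fold rule with the same interval, Lifr joined Stam2 on the higher side and Il11ra1 joined the lower side, for 2 and 4 of 8 members against 30.4% and 31.3% of all measured genes. The median log2 ratio of the 8 members, with a pseudocount of 0.5 insertions, was -1.37, also with Il6st at its bound, against -0.01 for all measured genes. The quartiles over all measured genes were -1.60 and 1.45.

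**Figure D1:**
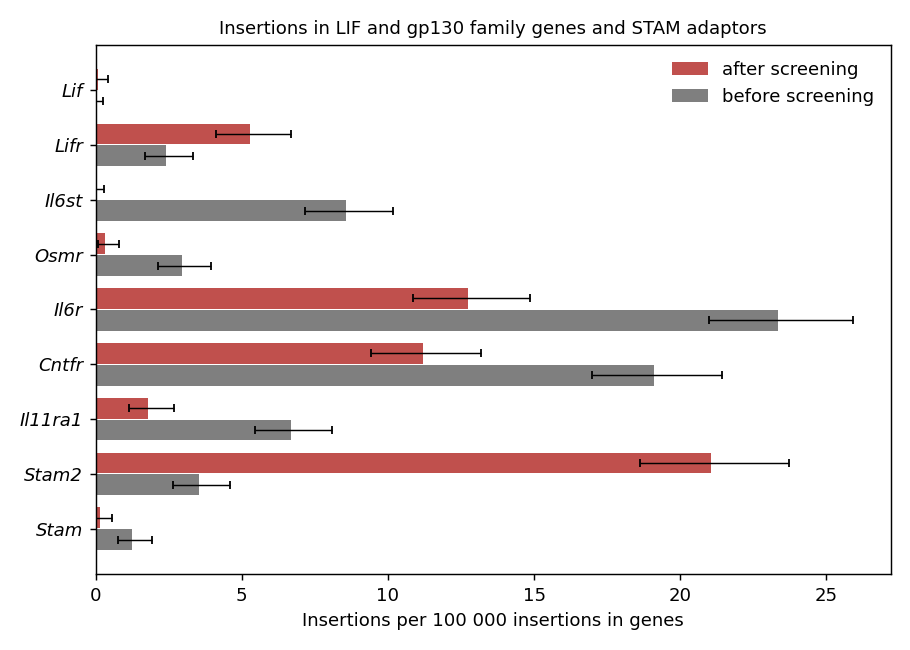
Insertions in each member per 100000 insertions in genes, after screening (upper bar) and before screening (lower bar), with exact 95% counting intervals and 1 library each. Stam2 stood at 21.1 after and 3.53 before screening, Il6st at 0 and 8.57, and bars are to be compared within a gene, since genes differ in length.

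Lif, which encodes the ligand itself, held 1 insertion after and 0 before screening. Both counts lie at or under the floor of 3 insertions that a count of 0 allows, which corresponds to a share of 0.000233% after and 0.000196% before screening. No fold was taken for Lif, and no difference was detectable at this depth.

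The signalling receptors, which carry the cytokine signal across the membrane, went in different directions. Il6st (ENSRNOG00000013963), the chain shared by the whole family, held 0 insertions after and 131 before screening. This was 36.8-fold lower by the floor, with an interval that starts at 29.5-fold. Its reads were 0 after and 179 before screening. Insertions are counted from reads, so 0 reads follow from 0 insertions and add no separate support. Of the 3314 genes with at least as many insertions as Il6st before screening, 75 (2.26%), Il6st included, had 0 after screening. By log2 ratio 73 measured genes stood lower than Il6st. For a gene at 0 after screening that ratio depends only on its count before screening, so the rank is not separate from the 0. A 0 was less rare among genes whose insertions before screening lay in exons as often as those of Il6st, a share given below. Of 38 such genes with at least 100 insertions, Il6st included, 7 (18.4%) had 0 after screening. In assembly GRCr8 Il6st overlaps the long noncoding locus LOC134485838, to which some of its insertions can belong.

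Lifr (ENSRNOG00000011696), the receptor chain that binds LIF and pairs with gp130, held 68 insertions after and 37 before screening, 2.18-fold higher by share (1.44 to 3.35). Counting disrupting insertions alone, Lifr held 34 after and 17 before screening, or 2.33-fold higher. The partner chains of the LIF receptor complex thus stood on opposite sides, with Il6st called lower and Lifr above 1 but under the 4-fold size. Osmr (ENSRNOG00000033192), the chain that pairs with gp130 for oncostatin M, held 4 insertions after and 45 before screening, a 9.47-fold lower share (3.45 to 36.3). Osmr and Lifr are neighbouring coding genes on chromosome 2 of GRCr8, and their intervals did not overlap.

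The value of Osmr depended on what was counted. By reads it held 69 after and 59 before screening, a 1.40-fold higher share, so that its direction turned round. The 4 insertions after screening carried 17.3 reads each, against 1.31 reads for each of the 45 before screening. Of the 407 genes with 4 insertions after screening, 2 (0.491%), Osmr included, had as many reads per insertion or more, and the median was 1. Whether a few abundant clones or the amplification set this was not tested.

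**Figure D2:**
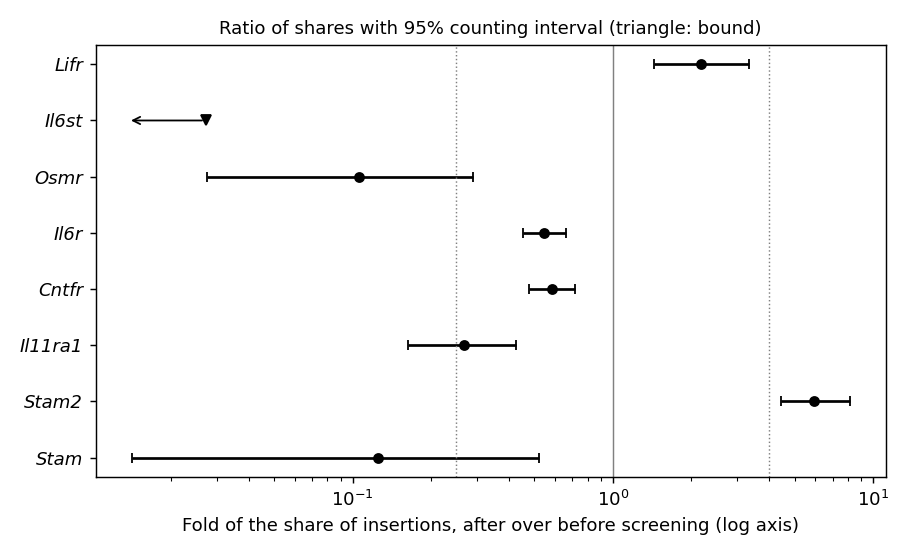
Ratio of the share of insertions after over before screening (log axis) for the 8 measured members, with 95% counting intervals, the line of no difference and dotted lines at 4-fold in each direction. Stam2 lies at 5.96, Lifr at 2.18, the alpha receptors between 0.268 and 0.586, and the triangle with an arrow marks the bound of Il6st, which had 0 insertions after screening.

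The alpha receptors bind a single cytokine each and rely on gp130 for the signal. Each of these genes had a lower share after screening, none of them by 4-fold. Il6r (ENSRNOG00000020811), the receptor of interleukin 6, held 164 insertions after and 357 before screening (1.83-fold lower, 1.52 to 2.22). Cntfr (ENSRNOG00000047307), the receptor of ciliary neurotrophic factor, held 144 after and 292 before screening (1.71-fold lower, 1.39 to 2.10). Il11ra1 (ENSRNOG00000015068), the receptor of interleukin 11, held 23 after and 102 before screening (3.73-fold lower, 2.36 to 6.15). By insertions the interval of Il11ra1 lay below those of Il6r and Cntfr, which overlapped each other. By reads the order of Il11ra1 and Il6r turned round, with Il11ra1 3.89-fold and Il6r 8.42-fold lower. Summed over these genes, there were 331 insertions after and 751 before screening, a 1.91-fold lower share (1.68 to 2.18).

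Il11ra1 sat near the 4-fold size, and its call changed with the count and the scaling. In disrupting insertions it held 12 after and 60 before screening, a 4.29-fold lower share that met the rule, and scaling by the median ratio also placed it past 4-fold. Il11ra1 overlaps Ccl27, a chemokine gene, in GRCr8. Ccl27 held 49 insertions after and 9 before screening, a 6.47-fold higher share (3.14 to 15.0), the opposite direction, and an insertion where they overlap could count for either. Il6r overlaps She, an adaptor gene that was not analysed here.

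The reads of Il6r did not follow its insertions. It held 214 reads after and 2164 before screening, an 8.42-fold lower share, against 1.83-fold by insertions. This came to 1.30 reads per insertion after and 6.06 before screening. Of 9814 genes with at least 10 insertions before screening, 36 (0.367%), Il6r included, had as many reads per insertion or more. For Cntfr the values were 1.30 after and 1.26 before screening, and for Il11ra1 1.35 and 1.42, close to the medians over genes of 1.32 after and 1.37 before screening. The cause of the difference in Il6r was not tested.

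**Figure D3:**
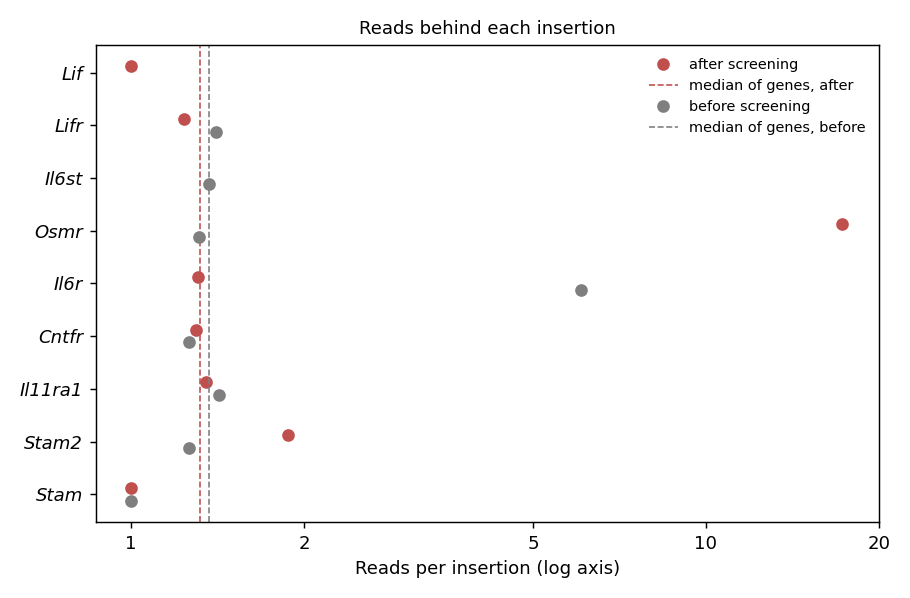
Reads per insertion (log axis) of each member after and before screening, with dashed lines at the medians over genes with at least 10 insertions. All points lie between 1 and 1.87 except Osmr after screening (17.3, from 4 insertions) and Il6r before screening (6.06).

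The adaptor genes Stam2 and Stam encode related proteins of the endosomal sorting complex and stood on opposite sides. Stam2 (ENSRNOG00000027447) held 271 insertions after and 54 before screening, a 5.96-fold higher share (4.44 to 8.14). By reads its share was 8.96-fold higher, with 507 reads after and 68 before screening, or 1.87 and 1.26 reads per insertion, and by disrupting insertions 5.87-fold higher, with 141 after and 28 before screening. Of all measured genes, 1808 (15.1%) had a higher log2 ratio than Stam2. The members were chosen with results of this screen known, so the direction of Stam2 is not independent evidence.

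Stam (ENSRNOG00000060817) held 2 insertions after and 19 before screening, an 8.0-fold lower share whose interval was wide (1.93 to 70.8). Each of its insertions rested on 1 read on average in both libraries. The intervals of Stam2 and Stam did not overlap, although the value of Stam rests on few insertions. Stam2 carried 40.0% of all insertions of the 9 members after screening and 5.21% before screening. Summed over the 9 members, the share was 1.29-fold lower after screening (1.17 to 1.42), with 677 insertions after and 1037 before screening. Without Stam2 it was 2.04-fold lower (1.81 to 2.29), with 406 and 983.

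Members differed in the kind of insertion they held. Insertions with a counted orientation were forward or reverse, and in every member the disrupting count equalled all insertions less the reverse ones, so that those without an orientation count were taken to lie in exons. In Il6st 127 of the 131 insertions before screening were of this kind, 96.9% (92.4 to 99.2), with 2 forward and 2 reverse ones. In Stam2 there were 0 exon insertions among 271 after screening, which allows up to 1.35%, and 0 among 54 before screening, which allows up to 6.60% (upper ends of the exact 95% intervals). Among genes with at least 100 insertions and readable exon insertions, the median exon share was 8.22% after and 7.99% before screening.

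An exon share as high as that of Il6st was rare. Of 3932 such genes before screening, 38 reached it, Il6st included. Of these 38 genes, 7 (18.4%) had 0 insertions after screening, against 128 (3.26%) of the 3932. An exon share of 0, as in Stam2, was found in 447 of 3538 genes with at least 100 insertions after screening. Before screening it was found in 425 of 3932, a set without Stam2, which held 54 insertions there. Fewer insertions make a share of 0 easier to reach. Among the receptors, Il6r held 24 exon insertions of 164 after screening, 14.6% (9.61 to 21.0), and 10 of 357 before screening, 2.80% (1.35 to 5.09). The exon insertions of Il6r were thus more numerous after screening while its insertions in all were fewer. Il11ra1 showed 17.4% (4.95 to 38.8) after and 16.7% (10.02 to 25.3) before screening, Cntfr 5.56% (2.43 to 10.7) and 3.42% (1.65 to 6.21), and Lifr had 1 exon insertion in each library.

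**Figure D4:**
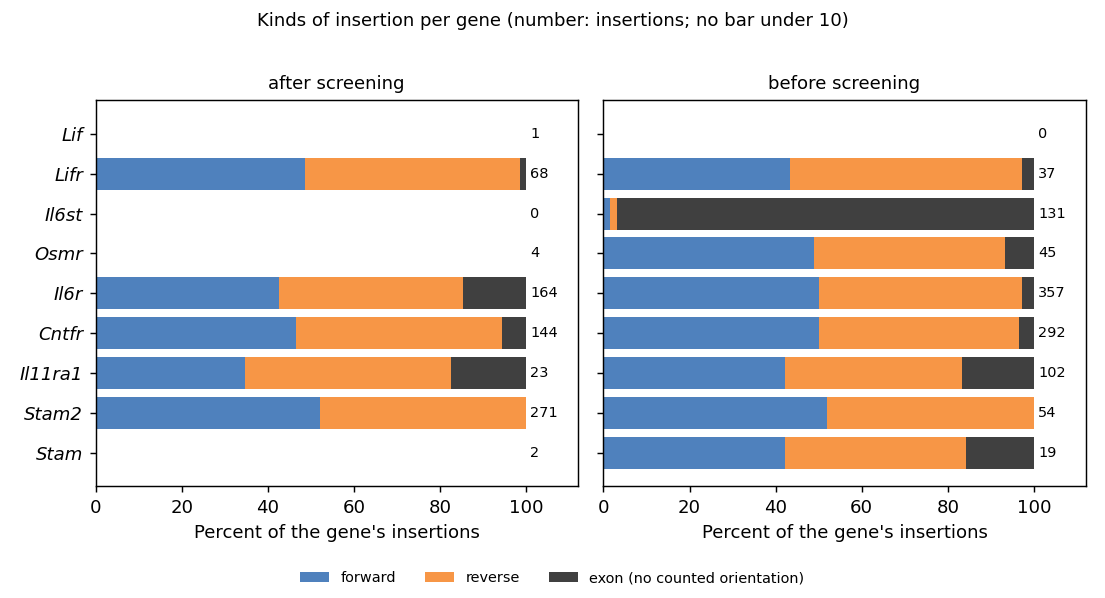
Forward, reverse and exon insertions as percent of each member's insertions after screening (left) and before screening (right), with the number of insertions beside each bar and no bar under 10 insertions. Forward and reverse shares are nearly equal wherever insertions were many, Il6st before screening consists of 96.9% exon insertions, and Stam2 has none in either library.

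Forward and reverse insertions were near balance in the members with many insertions. Stam2 held 141 forward and 130 reverse insertions after screening, 52.0% forward (45.9 to 58.1), and 28 and 26 before screening, 51.9% (37.8 to 65.7). Il6r held 70 of each after screening, and 179 forward and 168 reverse before screening. Lifr held 33 forward and 34 reverse insertions after screening, and 16 and 20 before screening. No member's interval excluded the share over all genes, which was 49.5% after and 49.6% before screening.

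The other genes of the pathway showed no common direction. Of 52 genes on 6 lists, 50 were in the table analysed and 42 were measured, of which 5 were called higher and 10 lower, with a median log2 ratio of -0.02. Over all measured genes 19.5% were called higher and 21.7% lower, and each list's counts are to be set beside these shares. With 11 or fewer measured genes on a list, no count is read as particular to it. The medians given here are the same with genes at 0 set at their bound, and Il27 and Socs7 were not analysed here. Among the JAK kinases and STAT factors, which relay the signal of these receptors, 0 of 11 were called higher and 4 lower (median -1.14). Stat6, which serves interleukin 4 rather than gp130, held 0 insertions after and 79 before screening (22.2-fold lower by the floor, interval from 17.6). Jak2, a kinase bound to gp130, held 8 and 111 (11.7-fold lower, 5.73 to 27.7). Stat3, the main effector of LIF, was called neither, with 280 insertions after and 173 before screening (1.92-fold higher, 1.58 to 2.34), and neither was Jak1, with 78 and 89 (1.04-fold, 0.758 to 1.43).

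Of 7 measured gp130 ligands and other receptors, 2 were called higher and 1 lower (median 0.75). Clcf1, a ligand of the CNTF receptor complex, held 100 insertions after and 20 before screening (5.94-fold higher, 3.65 to 10.1). Il11, the ligand of Il11ra1, held 10 and 0 (3.96-fold higher by the floor, interval from 2.66). With its 0 at the floor Il11 would thus not be called. Il27ra, the receptor of interleukin 27 that also pairs with gp130, held 1 and 50 (42.1-fold lower, 7.22 to 1696).

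Of 10 measured brakes on the pathway, 1 was called higher and 3 lower (median -0.63). Socs4, of the suppressors of cytokine signalling, held 33 insertions after and 1 before screening (39.2-fold higher, 6.56 to 1595). Cish, a related suppressor, held 0 and 16 (4.49-fold lower by the floor, interval from 3.25). The phosphatase gene Ptpn6 held 7 and 54 (6.49-fold lower, 2.95 to 16.9). Socs3, the suppressor that binds gp130 itself, held 0 insertions in both libraries.

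The branch through the phosphatase SHP2, the product of Ptpn11, links gp130 to the ERK cascade, and 0 of its 4 measured genes were called (median 0.29). Of the partners of the STAM proteins, 3 were measured and 0 called (median 0.52). Hgs, which forms the endosomal sorting complex with Stam and Stam2, held 328 insertions after and 272 before screening (1.43-fold higher, 1.22 to 1.69), and Usp8, a deubiquitinase bound by both, held 15 and 44 (2.47-fold lower, 1.35 to 4.78).

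Of 7 genes that LIF and STAT3 regulate in mouse stem cells, 2 were called higher and 2 lower (median 0.09). Pim3, a kinase gene, held 51 insertions after and 7 before screening (8.65-fold higher, 3.91 to 22.6), and Gbx2, a homeobox gene, held 45 and 10 (5.35-fold higher, 2.66 to 11.9). Klf4, a naive pluripotency factor, held 0 and 140 (39.3-fold lower by the floor, interval from 31.5). Pim1 held 2 and 11 (4.63-fold lower, 1.01 to 43.0). Hgs, Usp8, Stat3, Jak1 and Socs3 were named for their role after their values were seen.

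**Figure D5:**
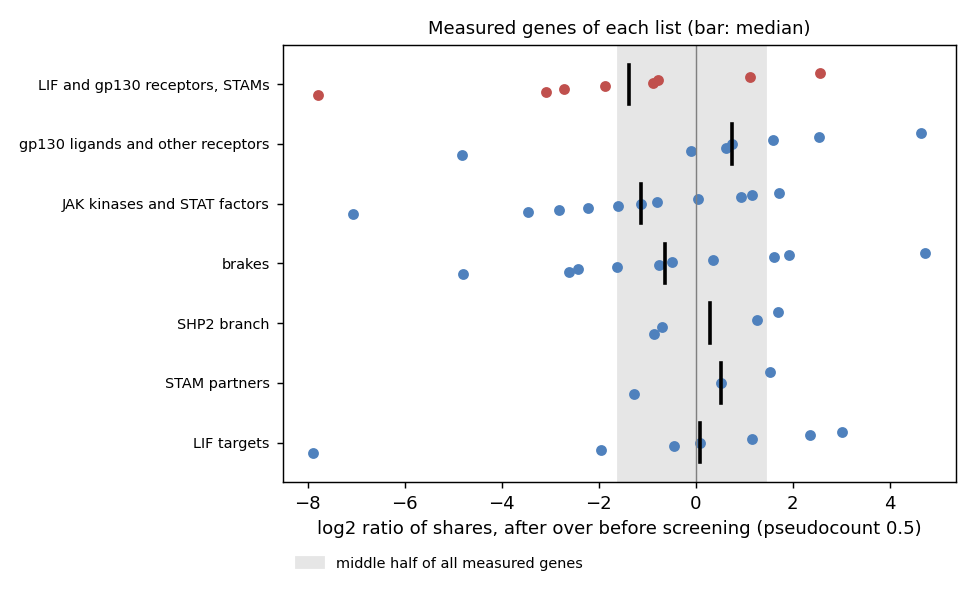
Log2 ratio of the share of insertions after over before screening (pseudocount 0.5 insertions) for the measured members (top, red) and for the measured genes of the 6 lists (blue), with the median of each as a bar and the range between the quartiles of all measured genes shaded. The members' median is -1.37 and the list medians run from -1.14 to 0.75, all inside the shaded range of -1.60 to 1.45.

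The genes whose pair of shares lay nearest to that of the 2 members with most insertions were found over the 2 libraries by distance on the log2 scale. For Il6r they were Slc2a13 (167 insertions after and 351 before screening, distance 0.036), Phldb3 (167 and 365, 0.041) and Pou2f2 (162 and 346, 0.048). For Cntfr they were Ate1 (144 and 303, distance 0.053), Raver1 (144 and 305, 0.063) and Thoc7 (138 and 298, 0.068). With 2 libraries this says only that the counts were alike.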

How the data were processed

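Splinkerette PCR products of 2 libraries were sequenced, and samples were grouped by the label before or after screening. The authors trimmed adapters and transposon tags with the FASTX toolkit and assigned insertions to genes with HaSAPPy, whose versions are not given in the sources used here. HISAT2 2.0.5 and featureCounts 1.5.0-p3 appear in the submitters' processing notes, and the labels describe an RNA preparation, whereas the table holds insertions. The methods name a mouse assembly and the table rat identifiers, so the build is uncertain. The authors deposited raw counts of insertions, disrupting, forward and reverse insertions and reads per gene, not scaled to depth. The labels leave the number at the end of the column names unexplained. The authors' deposited folds, ranks and Fisher values were not used. The entry for no gene held 57.9% of the insertions after and 57.3% before screening and stayed out of totals.

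Shares, folds and intervals were computed with Python 3.11.15, SciPy 1.17.1, NumPy 2.4.6 and pandas 2.3.3, and figures were drawn with matplotlib 3.10.9. The interval was the exact conditional binomial one, and its code was run on simulated independent counts. Those counts hold counting error only, so they cannot show how the interval does with clones or amplification. A count of 0 was set against a floor of 3 insertions for bounds only. The same rule was run over all genes. Alternatives were other counts, scalings, minimums and sizes. Members and lists were chosen with earlier results of these data known. Named are the members, up to 2 called genes per list and direction, ranked by the interval bound nearest 1, the 3 genes nearest to the 2 members with most insertions, and overlapping genes. Of the 9 members 9 matched RefSeq symbols.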

Additional observations from a re-analysis of the deposited data

Results flagged for a closer look

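Insertions assigned to no gene, which none of the comparisons of the members used, made up 57.9% of the insertions after screening, above the 57.3% before screening, with no replicate behind the difference.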

How the results depend on the processing

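No paired analysis was possible because neither group has more than 1 library. Of 48 values of the 8 measured members under 6 alternatives, 45 stayed within their counting interval, 2 moved and 1 reversed, all 3 by reads. By reads the log2 ratio of Osmr was 0.49 against -3.09 by insertions, that of Il6r -3.07 against -0.87, and that of Stam2 3.15 against 2.56, and the cause was not tested. By reads 3 members were again called lower, with Il6r in place of Osmr. Disrupting insertions and median ratio scaling, which shifts log2 values by 0.11, each added Il11ra1 to the members called lower, for 4. With the 2-fold rule the members called higher were 2. With at least 50 insertions 1 member was called lower, because Osmr and Stam have fewer. Over all genes that minimum gave 1300 higher and 1466 lower against 2338 and 2600, because fewer genes were measured, and the 2-fold rule gave 3639 higher. On the lists the genes called higher were 3 with the minimum of 50 and 13 with the 2-fold rule, against 5. The other counts of calls stayed within 1.5 times. Most alternatives reuse the same insertions, so their stability is no independent support.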
